A study of Mus musculus with 1989 samples.

Results

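The genes described here are those of the single-cell RNA table whose symbol is Cd followed by a number, such as Cd2, Cd24a or Cd28, which name leukocyte surface antigens. The symbol pattern matched 52 of the 8846 genes of the table. After the CD3 chain genes, Cd4, Cd5, Cd8a, Cd8b1, Cd52, Cd53, Cd69 and Cd74 had been left out by name, 40 genes remained. A few genes carry such a symbol without being surface antigens: Cd2ap and Cd2bp2 encode proteins inside the cell that bind the tail of CD2, and Cd3eap encodes a subunit of RNA polymerase I. They were kept because the rule takes symbols only.

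Leukocyte surface proteins received CD numbers in the order in which antibodies against them were grouped, so the genes share a nomenclature and not an origin. In the thymus, precursors that lack CD4 and CD8 (double negative, DN) pass through an immature single-positive (ISP) stage to cells with both coreceptors (double positive, DP), which divide as blasts, rest while they rearrange the T cell receptor alpha locus, and are then selected on self-peptides to become CD4 or CD8 single-positive (SP) cells. Adhesion and costimulatory proteins such as CD2, CD27 and CD28 act beside the T cell receptor when a thymocyte meets a presenting cell, while CD24 is a glycan-rich protein of immature cells.

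The cells were thymocytes of C57BL/6 mice, a common inbred strain per the study's methods, with no genetic change or treatment named, and the labels give male animals of 7 weeks. One droplet library of RNA (scRNA-seq) held 1993 cells, and single-cell ATAC-seq, which counts DNA fragments cut out of open chromatin, was used here for 182 DN, 125 DP, 119 CD4 and 116 CD8 sorted cells. The labels tie no cell to an animal, so the library and each sort count as 1 sample. No test between stages or sorts could be run, and all intervals are exact 95% intervals that cover counting error only.

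RNA levels are given in steps: a gene's rank when the distinct values within 1 cell are put in order, with 0 kept at 0. This rank stands in for a molecule count because quantile normalization keeps that order. A level is the sum of a gene's steps per 10000 steps of all genes over the cells of a stage. These levels are not scaled to gene length; the library reads 3′ ends. Cells had a median of 1484 detected genes (from 830 to 5025) and a median of 2558 steps, with a highest total of 22539. Clusters built without the 40 genes were named from other marker genes and fell into 78 DN-like, 303 ISP-like, 350 blast DP (DPbla-like), 493 rearranging DP (DPre-like), 332 selected DP (DPsel-like), 222 CD4 SP (CD4sp-like) and 148 CD8 SP (CD8sp-like) cells, beside 31 cells like nonconventional lymphocytes (NCL-like) and 36 cells like antigen-presenting cells (APC-like). The DN markers Erg and Igll1 were not among the genes of the table, and the other 4 of 6 DN markers were. A pair of clusters lay close to a class border: cluster 7 with 144 cells, which took the name ISP-like with a score of 0.205 against 0.146 for DPbla-like, and cluster 13 with 69 cells, which took the name CD4sp-like with 0.373 against 0.235 for DPsel-like. Median steps per cell ranged from 1938 in NCL-like to 7301 in ISP-like cells. Shares of cells were therefore taken after each cell had been thinned at random to 1300 steps.

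Promoter sequences from RefSeq (GRCm38.p6, from 250 bases before to 50 bases after a gene's start) were matched by symbol for 26 of the 40 genes. They are shown for 4 of the genes that rose from DPbla-like to DPre-like cells (Cd27, Cd37, Cd84 and Cd96) and for 2 that rose at selection (Cd82 and Cd200). Cd2, Cd28, Cd40lg, Cd7, Cd24a, Cd1d1 and Cd79b were not matched. Each sequence runs 5′ to 3′ on the strand of the gene, and capitals mark a match, on either strand, to any of 6 short motifs: the E protein sites CAGCTG and CACCTG, the GATA site AGATAA, the RUNX site TGTGGT, the ETS site AGGAAG and the Sp site GGGCGG, none of which holds another. For Cd82, with 4 listed starts, the window nearest to the center of its promoter peak is shown.
Cd27, chr6:125236978-125237277, minus strand: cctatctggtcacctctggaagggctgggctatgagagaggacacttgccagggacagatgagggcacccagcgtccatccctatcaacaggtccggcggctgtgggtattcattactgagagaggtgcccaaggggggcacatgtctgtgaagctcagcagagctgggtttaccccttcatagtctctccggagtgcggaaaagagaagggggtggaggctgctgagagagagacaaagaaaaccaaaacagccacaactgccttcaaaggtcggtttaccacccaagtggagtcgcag
Cd37, chr7:45238790-45239089, minus strand: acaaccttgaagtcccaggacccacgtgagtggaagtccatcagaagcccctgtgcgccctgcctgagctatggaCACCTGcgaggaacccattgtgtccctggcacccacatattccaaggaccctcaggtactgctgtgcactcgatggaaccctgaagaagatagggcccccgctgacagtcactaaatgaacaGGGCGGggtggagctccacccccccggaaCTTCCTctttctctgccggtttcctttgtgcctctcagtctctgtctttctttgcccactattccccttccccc
Cd84, chr1:171839447-171839746, plus strand: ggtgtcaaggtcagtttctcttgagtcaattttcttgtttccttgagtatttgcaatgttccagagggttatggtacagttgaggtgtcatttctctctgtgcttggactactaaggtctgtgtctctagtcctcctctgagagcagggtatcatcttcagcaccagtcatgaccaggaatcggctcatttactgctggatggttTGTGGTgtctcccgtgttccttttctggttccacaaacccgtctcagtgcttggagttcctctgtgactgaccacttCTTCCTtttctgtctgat
Cd96, chr16:46120199-46120498, minus strand: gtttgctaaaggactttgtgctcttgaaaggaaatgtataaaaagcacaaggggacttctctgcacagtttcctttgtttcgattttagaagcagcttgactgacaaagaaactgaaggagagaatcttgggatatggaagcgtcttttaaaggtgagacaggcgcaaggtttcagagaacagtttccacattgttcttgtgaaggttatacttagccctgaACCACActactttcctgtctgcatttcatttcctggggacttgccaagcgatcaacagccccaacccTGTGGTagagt
Cd82, chr2:93462453-93462752, minus strand: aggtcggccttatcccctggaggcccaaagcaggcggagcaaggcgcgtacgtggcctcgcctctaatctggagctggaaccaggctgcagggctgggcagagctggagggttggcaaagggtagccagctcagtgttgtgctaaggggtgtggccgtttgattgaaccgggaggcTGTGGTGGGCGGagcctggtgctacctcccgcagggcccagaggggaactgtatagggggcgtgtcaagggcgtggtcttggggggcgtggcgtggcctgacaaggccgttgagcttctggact
Cd200, chr16:45409004-45409303, minus strand: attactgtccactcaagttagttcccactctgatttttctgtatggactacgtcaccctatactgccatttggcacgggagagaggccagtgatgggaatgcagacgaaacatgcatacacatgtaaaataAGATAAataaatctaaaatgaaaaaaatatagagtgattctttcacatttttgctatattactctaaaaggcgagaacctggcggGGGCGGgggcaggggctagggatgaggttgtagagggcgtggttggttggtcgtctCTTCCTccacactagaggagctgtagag

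The 6 windows held different motifs. Those of Cd37 and Cd200 each held 3 of the 6, those of Cd84 and Cd82 each held 2, that of Cd96 held the RUNX letters at 2 places, and that of Cd27 held none. The RUNX letters stood in the windows of Cd84, Cd96 and Cd82 and in 16.8% of all 32851 promoters. The ETS letters stood in those of Cd37, Cd84 and Cd200 and in 35.4% of all promoters, and the Sp letters in those of Cd37, Cd82 and Cd200 and in 35.7% of all. The GATA letters stood in the window of Cd200 (11.2% of all) and CACCTG in that of Cd37 (20.2% of all). CAGCTG, which 16.3% of all promoters held, stood in none of the 6. Over all 26 matched genes, by the first listed window of each, the RUNX letters stood in 23.1%, ETS in 53.8%, Sp in 50.0% and GATA in 15.4%. CACCTG stood in 23.1% of them and CAGCTG in 19.2%. These are matches of letters and not measured sites.

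Over the 7 thymocyte stages the genes spanned a wide range of levels. Cd47, whose product gives phagocytes a signal not to engulf the cell, was the highest at 7.12 steps per 10000 (6.93 to 7.31). Cd27, a receptor of the tumor necrosis factor family, followed at 6.99 (6.80 to 7.18), an interval that overlaps that of Cd47. Cd24a stood at 4.26 (4.12 to 4.41), Cd28 at 3.97 (3.82 to 4.11) and Cd2 at 3.43 (3.30 to 3.56). Cd164, a sialomucin, had 2.52, the tetraspanin gene Cd37 2.14 and Cd84, of the SLAM family of self-binding receptors, 1.45. At the other end, Cd40 and Cd180 had 0.00936 and 0.00401. Together the 40 genes made up 41.8 of 10000 steps in DN-like cells. The sum was 27.7 in ISP-like cells and 31.8 in DPbla-like ones, then 50.4 at DPre-like and 75.7 at DPsel-like, and among SP cells 61.3 for CD4sp-like and 54.5 for CD8sp-like. Their summed level was lowest in the ISP-like cells and highest in the DPsel-like cells among these stages. A few genes weigh heavily in such a sum: in DPsel-like cells Cd27 was at 14.9, Cd28 at 13.3 and Cd2 at 12.3.

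**Figure D1:**
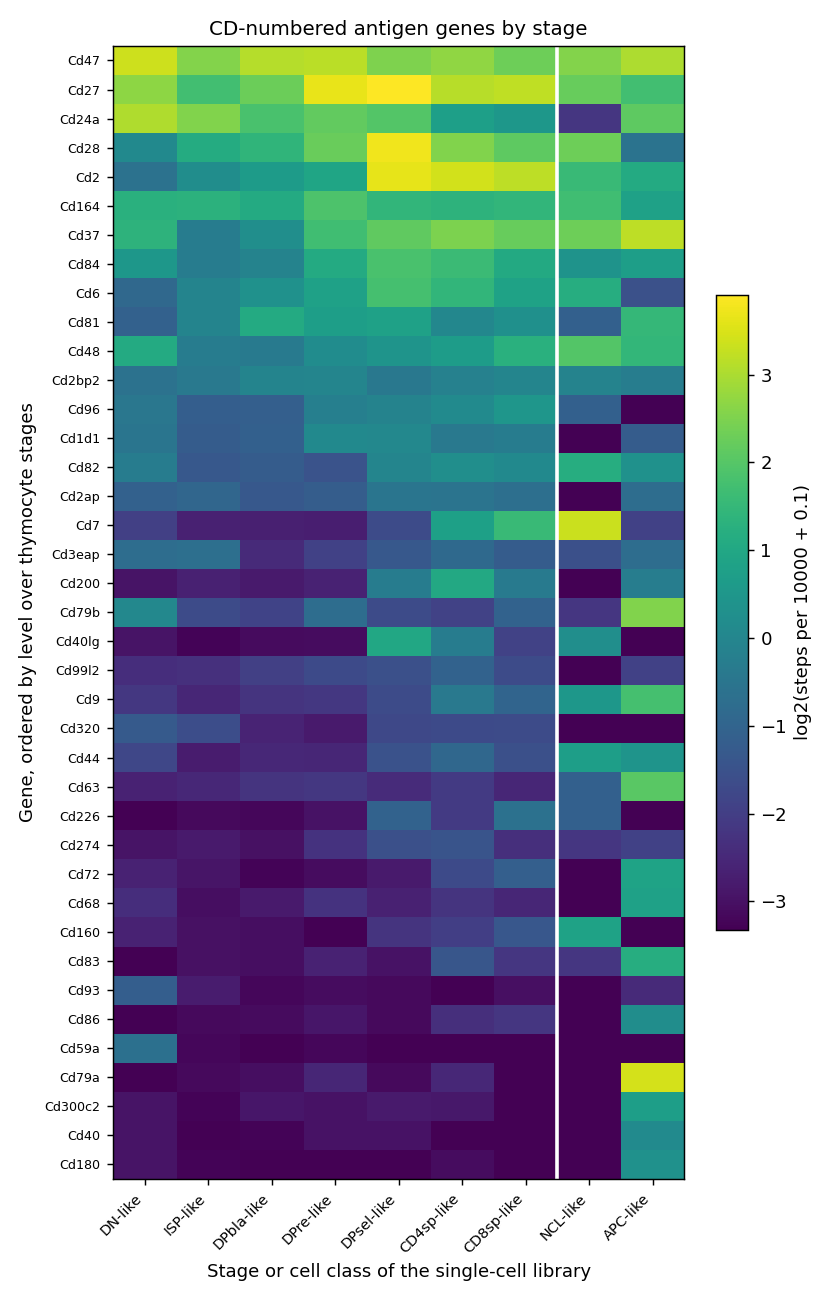
Level of 39 of the 40 genes (rows, ordered by their level over the thymocyte stages) in 7 thymocyte stages and, right of the white line, in NCL-like and APC-like cells, as log2(steps per 10000 + 0.1), so that a value of 0 appears at the bottom of the color scale. Cd2, Cd28 and Cd27 are brightest in DPsel-like cells, Cd7 in NCL-like cells and Cd79a in APC-like cells.

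After thinning, 10 of the 40 genes were found in at least 10% of DN-like cells and 9 of ISP-like cells. The number was 11 for DPbla-like, 13 for DPre-like and 14 for DPsel-like cells, and then 15 for CD4sp-like and 14 for CD8sp-like ones. The corresponding share of all genes ranged from 26.3% in ISP-like to 31.3% in DN-like cells. The median gene of the 40 was found in 2.56% of DN-like and 6.98% of CD4sp-like cells. Cd27, Cd28, Cd47, Cd84, Cd164 and Cd24a passed in each of the 7 stages. Cd7 and Cd82 passed in CD4sp-like and CD8sp-like cells, Cd40lg among these stages in DPsel-like cells, and Cd79b in DN-like cells.

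From DN-like to ISP-like cells, 4 genes fell and 2 rose by the rule used throughout, a ratio of levels of at least 2 with at least 50 steps in both stages together. Of the 40 genes, 19 held 50 steps. Of all 6559 genes that did so, 9.04% were higher and 10.9% were lower by the same rule, against 10.5% and 21.1% of the 19. Their median log2 ratio was -0.54, and that of all genes was -0.05. Cd37 fell from 2.46 (1.94 to 3.07) to 0.725 (0.621 to 0.843), 3.39-fold with an interval of 2.56 to 4.45. Cd48, a ligand of CD2 in the mouse, fell from 2.02 to 0.717 (2.81-fold, 2.08 to 3.77), the tetraspanin gene Cd82 from 0.725 to 0.301 (2.41-fold, 1.43 to 3.90), and Cd79b from 0.945 to 0.212 (4.46-fold, 2.74 to 7.15).

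Cd79b encodes a signaling chain of the B cell receptor, whose partner chain is encoded by Cd79a. In DN-like cells Cd79b had 30 steps and Cd79a had 0, with an upper limit of 0.116 per 10000. The 2 that rose were Cd28, from 0.977 to 2.07 (2.11-fold, 1.47 to 3.15), and the tetraspanin gene Cd81, from 0.378 to 0.857 (2.27-fold, 1.27 to 4.46). Both lay near the rule's bound. With every cell thinned to 1300 steps Cd28 was 1.53-fold higher, and without cluster 7 the ratios of Cd28 and Cd81 were 1.98 and 1.61 and the counts became 0 higher and 8 lower, with Cd84, Cd27, Cd96 and Cd47 joining the 4 that fell.

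A pair of genes with too few steps for the rule had their highest thymocyte level in DN-like cells. Cd59a, whose product blocks the last step of complement attack, had 17 steps in the 78 DN-like cells, a level of 0.536 (0.312 to 0.858). In the other 6 thymocyte stages it had 3 steps in all, 2 in ISP-like and 1 in DPre-like cells. Reads shared with its related neighbor Cd59b were not measured, so its level is uncertain. Cd93, a lectin-like receptor of early progenitors, had 0.347 (0.173 to 0.620) in DN-like, 0.0467 in ISP-like and at most 0.0238 in the later stages.

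From ISP-like to DPbla-like cells, 1 gene rose and 2 fell, of 20 with at least 50 steps. Of all genes, 3.72% were higher and 5.36% lower. Cd81, a tetraspanin that joins coreceptor complexes, rose from 0.857 (0.743 to 0.984) to 2.03 (1.84 to 2.24), a ratio of 2.37 (2.00 to 2.82). It was highest in the blasts among the 7 stages, followed by 1.65 in DPsel-like cells, and the intervals of these 2 stages overlap. Cd320, the receptor that takes up transcobalamin with vitamin B12, fell from 0.225 to 0.0638, 3.53-fold (1.90 to 7.05). Cd3eap, the polymerase I subunit, fell from 0.522 to 0.0834, 6.26-fold (3.75 to 11.1). In DN-like cells Cd3eap had been at 0.504, level with the ISP-like cells within counting error. Cd24a passed from 8.19 (7.23 to 9.25) in DN-like through 5.65 in ISP-like to 3.43 in DPbla-like cells, each change less than 2-fold.

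From DPbla-like to DPre-like cells, 6 genes rose and 0 fell, of 18 with at least 50 steps. Of all genes, 9.76% were higher and 8.31% lower, and the median log2 ratio was 0.56 for the 18 and 0.20 for all genes. Cd27 rose from 4.77 (4.48 to 5.08) to 12.6 (12.0 to 13.3), 2.65-fold (2.44 to 2.88). Cd37 rose from 1.09 to 3.10 (2.85-fold, 2.40 to 3.39) and Cd84 from 0.834 to 2.02 (2.42-fold, 1.97 to 2.97). Cd96, a receptor for nectin-like ligands, rose from 0.358 to 0.762 (2.13-fold, 1.54 to 2.95). Cd79b rose from 0.172 to 0.502 (2.92-fold, 1.88 to 4.60), while Cd79a was at 0.0196 and 0.0717.

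The sixth was Cd1d1, whose product presents lipids on DP thymocytes to natural killer T cells. It rose from 0.363 (0.285 to 0.456) to 0.986 (0.811 to 1.19), 2.72-fold (2.01 to 3.70), and was highest in DPre-like cells, level within counting error with 0.940 in DPsel-like cells. Cd1d2 is its close copy and can share reads with it. DPbla-like cells were deeper than DPre-like cells, with medians of 5267 and 2002 steps. The DPre-like class was not uniform: in cluster 8, with 121 of its 493 cells, the proliferation gene Mki67 was found in 43.0% of cells. With every cell thinned to 1300 steps the ratio of Cd37 was 2.24, and that of Cd79b was 6.03 with under 50 steps left. On the scale of mean log2 values, where a difference of at least 0.5 was required, only Cd27 passed among the 18, with 0.89.

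**Figure D2:**
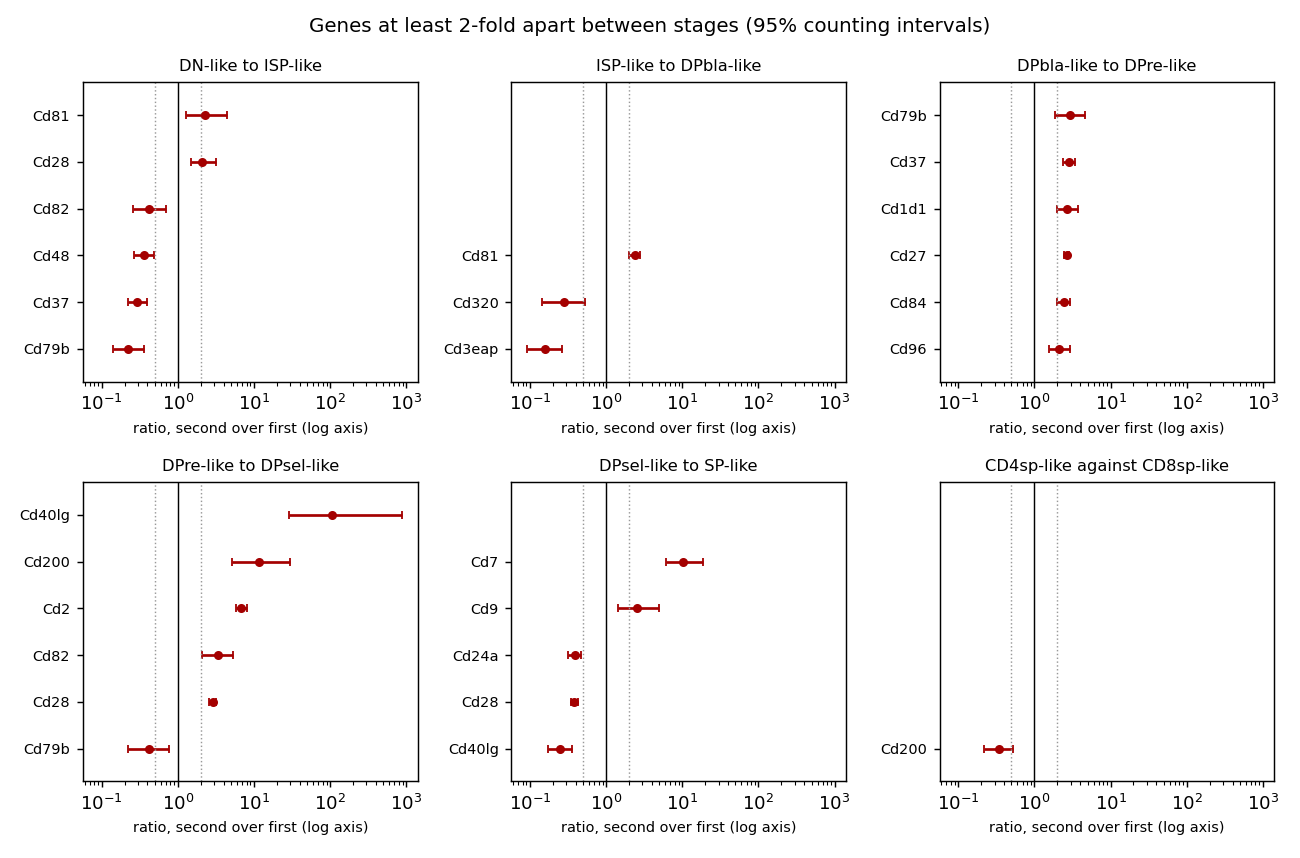
Ratio of levels, second stage over first, on a log axis, for every gene at least 2-fold apart in each of 6 comparisons; points are ratios, bars are 95% counting intervals, the solid line is 1 and the dotted lines are 0.5 and 2. Cd40lg and Cd200 lie farthest right from DPre-like to DPsel-like cells, and Cd7 does from DPsel-like to SP-like cells.

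The largest ratios of the 6 comparisons lay between DPre-like and DPsel-like cells, where 5 genes rose and 1 fell, of 19 with at least 50 steps. Of all genes, 4.74% were higher and 5.95% lower, against 26.3% and 5.26% of the 19, with medians of 0.27 and -0.01 on the log2 scale. Cd2, the adhesion receptor that binds CD48 on other cells, had 0.567, 1.06, 1.45 and 1.80 (1.56 to 2.07) from DN-like to DPre-like cells and 12.3 (11.5 to 13.2) in DPsel-like cells. The ratio between these last stages was 6.84 (5.86 to 8.02), and the DPsel-like interval lies above that of each earlier stage. The mean log2 value differed by 1.53. After thinning, Cd2 was found in 18.7% of DPre-like cells and 76.5% of DPsel-like cells, with 13.9% in APC-like cells.

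Cd28, the main costimulatory receptor of T cells, rose from 4.64 (4.25 to 5.06) to 13.3 (12.4 to 14.2), 2.86-fold (2.56 to 3.19). It was found in 43.6% of DPre-like and 78.0% of DPsel-like cells after thinning, and in 0 of 36 APC-like cells at that depth (a share of 8.33% by the limit of 3 cells and 9.74% by the exact interval). Before thinning it was found in 6 of those 36 cells. Cd82 rose from 0.260 to 0.869, 3.34-fold (2.11 to 5.39). Cd200, an inhibitory ligand for myeloid cells, rose from 0.0628 (7 steps) to 0.726 (51 steps), 11.6-fold (5.23 to 30.2). Cd40lg, the ligand by which helper T cells activate CD40 on presenting cells, had from 1 to 3 steps in each stage from DN-like to DPre-like and 134 steps in DPsel-like cells. Its level went from 0.0179 to 1.91 (1.60 to 2.26), a ratio of 106 with a counting interval of 28.9 to 888. It was 60.9 after thinning. Cd79b fell from 0.502 to 0.214, 2.35-fold (1.31 to 4.48).

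Cd6, a scavenger receptor cysteine-rich protein that binds CD166, was below the 2-fold bound, with 1.67 (1.44 to 1.93) in DPre-like and 3.29 (2.88 to 3.74) in DPsel-like cells. Cd27 was at 14.9 in DPsel-like cells, its highest stage. Cd47 was at 8.79 and 5.55 in the 2 stages.

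The DPsel-like cells consisted of 2 clusters, and the genes divided between them. In cluster 3, which lay earlier along an order of cells rebuilt from the data (median position 0.480 on a scale from 0 to 1), Cd28 was at 16.5, Cd27 at 19.0, Cd24a at 5.66 and Cd40lg at 0.117. In cluster 2 (median position 0.634), Cd28 was at 10.2, Cd27 at 11.0, Cd24a at 2.07 and Cd40lg at 3.60. Of the 134 steps of Cd40lg in DPsel-like cells, 130 were in cluster 2. Cd2 was at 10.0 in cluster 3 and 14.5 in cluster 2. Markers of NCL-like cells, 7 genes, summed to 10.5 per 10000 in cluster 2 (all 7 above 0), 1.26 in cluster 3 and 78.4 in NCL-like cells, where Cd40lg was at 1.09. Their part in the Cd40lg level was not tested.

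**Figure D3:**
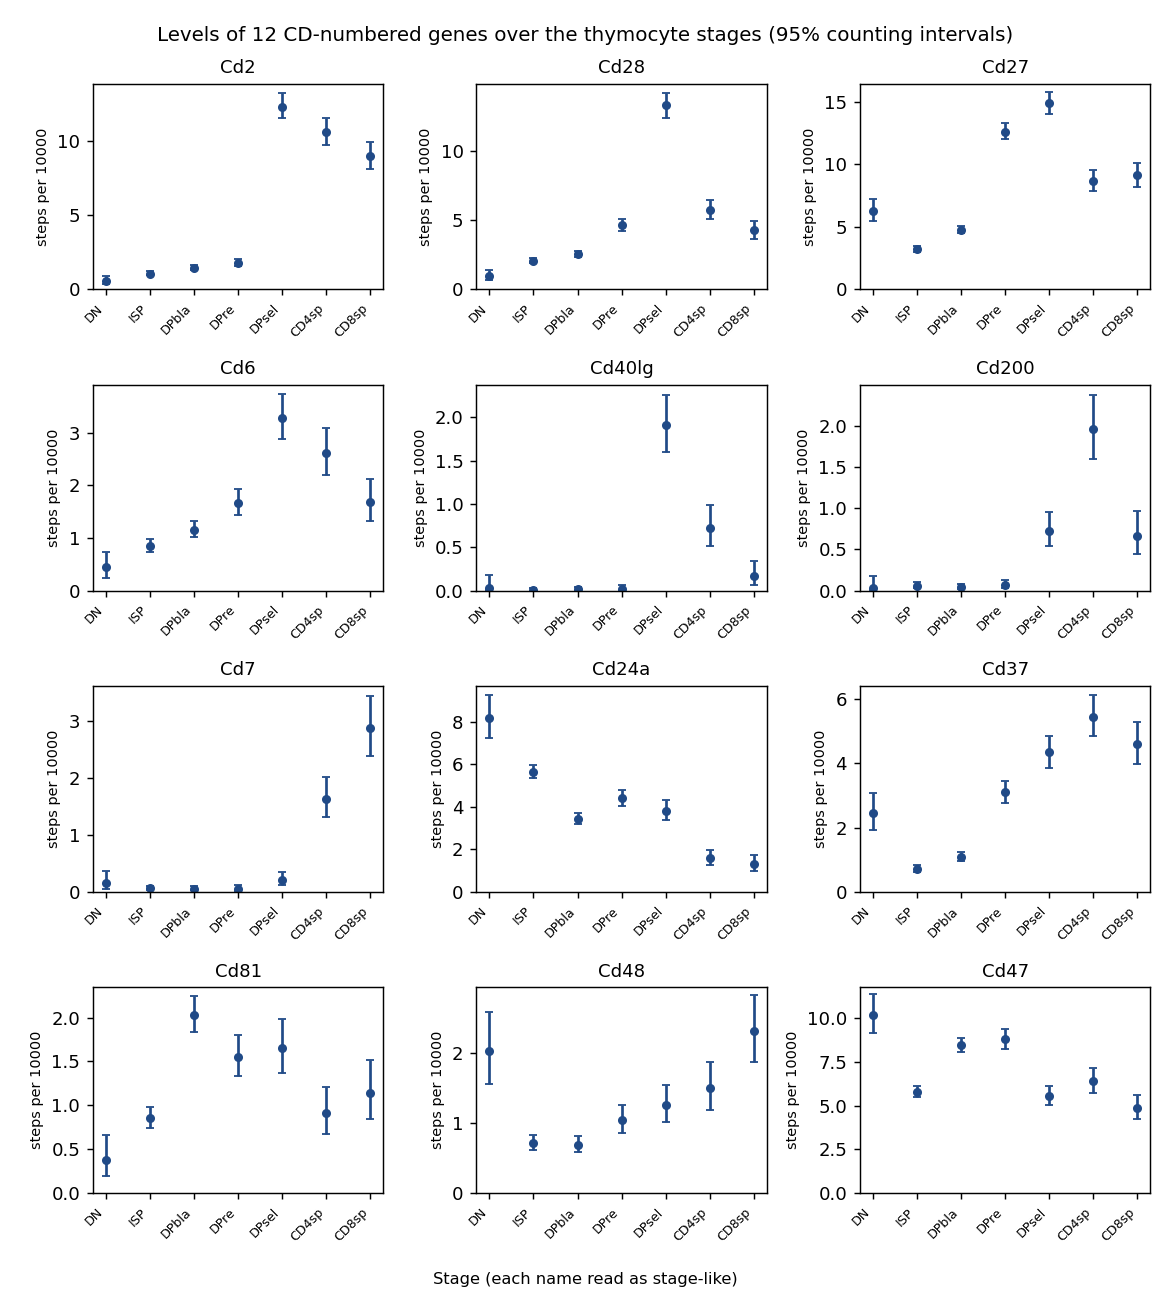
Levels in steps per 10000 of 12 of the genes over the 7 thymocyte stages; points are levels, bars are 95% counting intervals, and every axis starts at 0. Cd2 steps up from 1.80 to 12.3 at the DPsel-like stage, Cd28 peaks there at 13.3, and Cd24a is highest in DN-like cells at 8.19.

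From DPsel-like to SP-like cells, 2 genes rose and 3 fell, of 23 with at least 50 steps. Of all genes, 3.84% were higher and 2.13% lower, against 8.70% and 13.0% of the 23, with medians of -0.05 on the log2 scale in both. Cd7, an immunoglobulin superfamily receptor of T and natural killer cells, rose from 0.214 (0.120 to 0.352) to 2.19, 10.2-fold (6.07 to 18.6). It had been at 0.158 or lower in all earlier stages. Among SP-like cells it was at 1.64 (1.31 to 2.02) in CD4sp-like cells and 2.88 (2.39 to 3.45) in CD8sp-like ones, and its highest level over all classes was 10.0 in NCL-like cells. The NCL markers summed to 12.2 per 10000 in CD8sp-like and 4.13 in CD4sp-like cells, where 1 of the 7, Nkg7, is also a CD8sp marker, and their part in the Cd7 level was not tested. The tetraspanin gene Cd9 rose from 0.214 to 0.550, 2.57-fold (1.43 to 4.92), and 1.86-fold after thinning.

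Cd24a, the antigen that thymocytes lose as they mature, fell from 3.82 (3.37 to 4.30) to 1.47, 2.60-fold (2.11 to 3.21). It was at 1.60 in CD4sp-like cells and 1.31 in CD8sp-like ones, whose intervals overlap. Cd28 fell from 13.3 to 5.09, 2.61-fold (2.33 to 2.92), and on the mean log2 scale the difference was -1.03. Cd40lg fell from 1.91 to 0.476, 4.01-fold (2.84 to 5.75). Cd2 remained high, with 10.6 (9.71 to 11.5) in CD4sp-like cells and 8.98 (8.10 to 9.94) in CD8sp-like ones. Cd37 was at 5.46 (4.84 to 6.13) in CD4sp-like cells, its highest thymocyte stage, and its interval there overlaps that of CD8sp-like cells at 4.60.

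Between CD4sp-like and CD8sp-like cells, 1 of 19 genes with at least 50 steps was apart. Of all genes, 1.22% were higher and 1.58% lower in CD8sp-like cells. Cd200 was at 1.96 (1.60 to 2.38) in CD4sp-like cells and 0.667 (0.443 to 0.964) in CD8sp-like ones, 2.93-fold lower in the latter (1.92 to 4.63). This difference rested on cluster 13, where Cd200 stood at 3.63 with 63 of the 103 steps of the CD4sp-like cells. Without that cluster the ratio of CD8sp-like to CD4sp-like cells was 0.588, which does not pass the rule, and with clusters from 30 principal components it was 1.20. Cd40lg had 38 steps in CD4sp-like (0.722, 0.511 to 0.992) and 7 in CD8sp-like cells (0.167, 0.0671 to 0.344), together under the 50 that the rule asks for. Cd226, an adhesion receptor for nectin-like ligands, had 0.133 (0.0535 to 0.274) and 0.548 (0.347 to 0.822), from 7 and 23 steps. Cd48 had 79 steps in CD4sp-like cells and 97 in CD8sp-like ones, where its level was 2.31 (1.87 to 2.82), its highest among the 7 stages. The level of Cd48 in DN-like cells, 2.02, lies within that interval. Cd96 was at 1.01 and 1.29, with overlapping intervals.

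Along a rebuilt order of the DPre-like, DPsel-like and SP-like cells, in 10 bins of 119 or 120 cells, the genes changed at different positions. The order was computed without the 40 genes, by population balance analysis, which reads a direction from the density of cells on a neighbor graph and from chosen end cells, here those with the highest CD4sp and CD8sp markers. The earlier stages took no part in it. In bins 1 to 4, almost all cells of which were DPre-like, Cd2 lay between 1.52 and 2.22. In bin 5 it was at 7.96 (6.89 to 9.14), and from bin 6 to bin 8 it lay between 12.3 and 12.5. Cd28 went from 5.96 in bin 4 to 14.8 in bin 5 and 14.2 in bin 6, then down to 3.15 (2.60 to 3.79) in bin 10. Cd6 went from 2.14 to 3.82 between bins 4 and 5.

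Cd27 climbed earlier, from 8.25 in bin 1 through 13.8, 14.1 and 16.0 to 18.5 (16.9 to 20.3) in bin 5, and came down to 6.45 in bin 10. Cd40lg followed later: 0.119 (0.0246 to 0.349) in bin 5, 1.88 in bin 6 and 2.50 (1.94 to 3.16) in bin 7, then 1.20, 0.770 and 0.194. Cd7 was at 0.123 or lower through bin 6, 1.05 in bin 7 and 3.57 (2.98 to 4.24) in bin 10. Cd24a was at 5.61 in bin 5 and 0.913 (0.629 to 1.28) in bin 10. Bins are slices of 1 library and not replicates, and bins 9 and 10 hold 107 and 39 CD4sp-like cells.

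**Figure D4:**
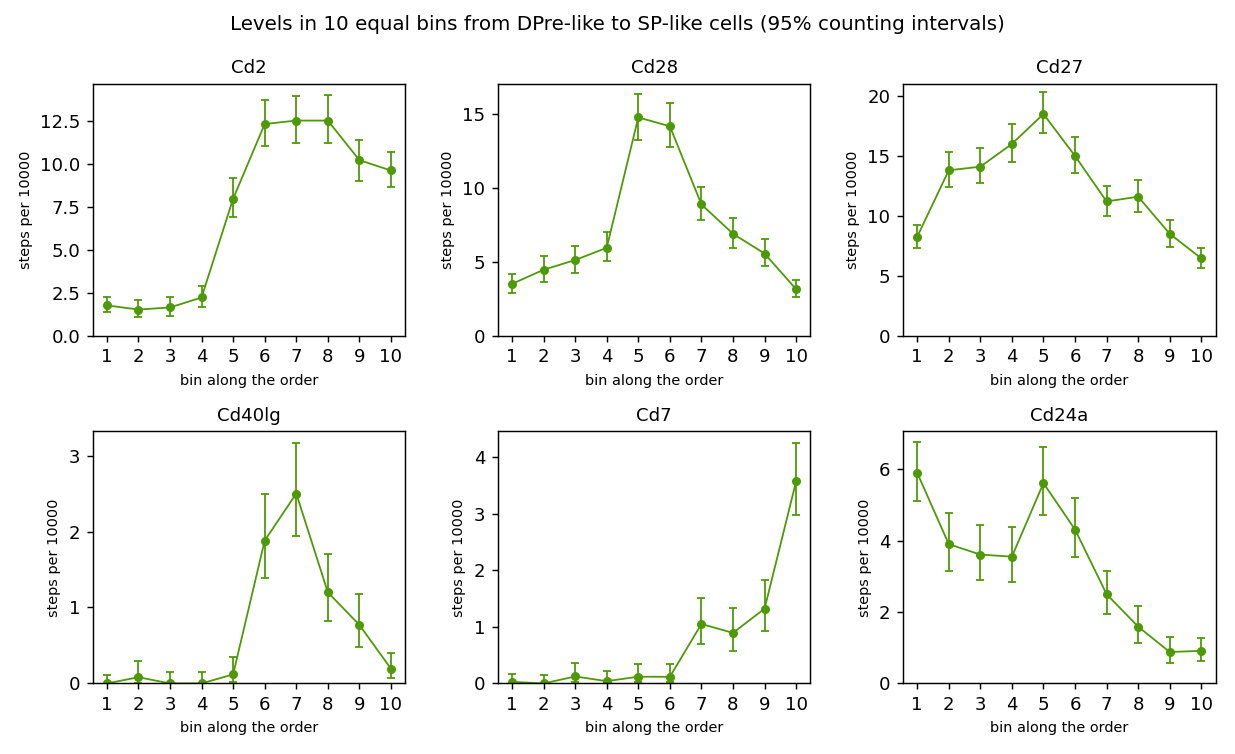
Levels in steps per 10000 of Cd2, Cd28, Cd27, Cd40lg, Cd7 and Cd24a in 10 equal bins along the rebuilt order from DPre-like to SP-like cells; points are levels, bars are 95% counting intervals, and lines join neighboring bins. Cd2 and Cd28 step up at bin 5, Cd40lg peaks at bin 7 with 2.50, and Cd7 is highest in bin 10 with 3.57.

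Over the 6 comparisons, 26 of the 40 genes held 50 steps in at least 1, and 18 of these were past the rule in at least 1, against 36.7% of the 7812 genes of the table that held 50 steps. Read by role, 5 of the 10 genes of costimulation were among the 18: Cd27, Cd28, Cd96, Cd200 and Cd40lg. Cd274, Cd160, Cd226, Cd86 and Cd40 were not, and only Cd226 among them reached 50 steps, in the comparison of DPsel-like with SP-like cells. Of these 5, Cd226 and Cd274, the latter encoding the inhibitory ligand PD-L1, reached at most 0.548 and 0.266 in a thymocyte stage. All 3 genes of the CD2 group, Cd2, Cd84 and Cd48, were among them. So were Cd37, Cd81, Cd82 and Cd9 of the 5 tetraspanin genes, whereas Cd63 lay between 0.0630 and 0.133. Of the 5 adhesion genes only Cd24a was. Cd99l2, a relative of the adhesion gene for CD99, lay between 0.0945 and 0.380. Cd44, the hyaluronan receptor, was at 0.437 or lower in every thymocyte stage, with 0.189 (0.0694 to 0.412) in DN-like cells. Cd2bp2, which binds the tail of CD2, lay between 0.567 and 0.882 over the stages, and Cd2ap, an adaptor with the same partner, between 0.294 and 0.598.

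A set of 84 genes for other CD antigens whose symbols are not CD-numbered, such as integrins and cytokine receptors, gave the background for the naming. The table held 69 of them. From DN-like to ISP-like cells, 16 of 39 with at least 50 steps were lower and 2 were higher, against 10.9% and 9.04% of all genes. From ISP-like to DPbla-like cells, 2 of 41 were higher and 3 lower (all genes 3.72% and 5.36%). From DPbla-like to DPre-like cells, 8 of 39 were higher and 0 lower (all genes 9.76% and 8.31%), the same direction as the 6 CD-numbered genes. From DPre-like to DPsel-like cells, 6 of 41 were higher and 2 lower (all genes 4.74% and 5.95%). From DPsel-like to SP-like cells, 11 of 45 were higher and 4 lower (all genes 3.84% and 2.13%), whereas 2 CD-numbered genes rose and 3 fell. Between CD4sp-like and CD8sp-like cells, 5 of 38 were lower and 1 higher in the latter (all genes 1.58% and 1.22%). The markers that named the stages include other CD antigens, such as Il2ra for DN and Ccr7, Il7r and S1pr1 for CD4sp. For such genes a change between stages was set in part by the naming. The CD-numbered genes described here took no part in it, so the counts of these lists are not compared on equal terms.

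The 2 classes of other cells shared several of their highest genes with the thymocyte stages and differed in others. In the 36 APC-like cells, whose leading genes were class II genes and Cd74, the highest were Cd79a with 10.8 (9.04 to 12.8), Cd37 with 9.08, Cd47 with 7.92, Cd79b with 5.69, Cd24a with 4.21, Cd63 with 4.04, Cd9 with 3.30 and Cd27 with 3.22. Cd83, a marker of mature dendritic cells and activated B cells, was at 2.15 (1.40 to 3.14). Cd68 (1.65), Cd300c2 (1.57), Cd180 (1.16), Cd86 (1.07) and Cd40 (0.990), of myeloid cells and B cells, were also above each thymocyte stage. In the 7 thymocyte stages Cd79a was at 0.0761 or lower. The 6 APC markers summed to 204 per 10000 in APC-like cells and to between 4.69 and 7.19 in the thymocyte stages. Cd72, a B cell receptor of the lectin family, had 0.357 (0.200 to 0.590) in CD8sp-like cells, where Cd79a had 0 steps, and 0.519 in cluster 13. The CD4sp-like cells, which include cluster 13, had 4 steps of Cd79a. The APC markers summed to 8.01 in cluster 13 and to 4.77 in CD8sp-like cells. Their part in the Cd72 level was not tested.

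In the 31 NCL-like cells, the highest were Cd7 with 10.0 (7.97 to 12.4), Cd47 with 5.79, Cd28 and Cd37 with 4.82 each, Cd27 with 4.58, Cd48 with 3.86, Cd164 with 3.14 and Cd2 with 2.89. Cd160, a receptor of cytotoxic lymphocytes, was at 1.69 (0.923 to 2.83), and 0.286 was its highest level in a thymocyte stage. Cd44 was at 1.57 (0.835 to 2.68). Cd24a had 1 step, a level of 0.121 (0.00305 to 0.672), below each thymocyte stage. Of the 40 genes, 18 were found in none of the NCL-like cells after thinning, where a count of 0 among 31 cells has a limit of 9.68% by the 3 cells and of 11.2% by the exact interval, both at the thinned depth.

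Open chromatin was compared over the sorted cells. The ATAC table held 138317 peaks of 4000 bp, and 1108749 counts fell in peaks in the DN, 478264 in the DP, 558091 in the CD4 and 494645 in the CD8 sorted cells. Of the 40 genes, 38 had a peak centered within 2 kb of a protein-coding start (all but Cd86 and Cd300c2), but few held the 50 counts that a comparison required: 4 from DN to DP, 3 from DP to SP and 3 between CD4 and CD8. The rule was a ratio of at least 1.5 in counts per 10000. From DN to DP, the Cd1d1 peak was higher (1.60-fold, 0.977 to 2.58) and the Cd82 peak, at chr2:93460524-93464523, lower (1.70-fold), against 13.8% of all promoter peaks higher and 10.3% lower. The Cd1d1 interval includes 1, and with all peaks within 2 kb of a start summed, Cd82 was not past the rule, while Cd1d1 and Cd2ap were higher. From DP to SP, 0 of 3 were apart (10.0% of all higher, 11.6% lower), and between CD4 and CD8 again 0 of 3 (9.05% higher, 16.5% lower). The Cd28 peak, at chr1:60744341-60748340, held 94, 30, 30 and 35 counts in DN, DP, CD4 and CD8 cells. Coordinates are those of the table, whose build is not stated. The submitters' processing notes list GRCm38.p5 and the human build hg38 with no role for either, and 26.0% of its peaks lay near GRCm38 starts, against 7.78% after a shift of the starts by 100000 bases.

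To gain depth, counts were also summed over each gene's locus, from 10 kb before its start to its end, in 62504 peaks that do not overlap one another. This was chosen after the promoter counts had been seen. From DN to DP, 16 of the 40 loci held 50 counts, 5 were higher and 2 lower, with 12.4% of all loci higher and 15.5% lower. The locus of Cd44 was at 1.35 (1.09 to 1.66) counts per 10000 counts in these peaks in DN and 2.62 (2.06 to 3.28) in DP cells, that of Cd96 at 0.669 and 1.64 (2.45-fold, 1.59 to 3.77), that of Cd2ap at 0.476 and 1.33 (2.78-fold, 1.69 to 4.60), and those of Cd226 and Cd1d1 were 1.80-fold and 1.61-fold higher, the last with an interval that includes 1. The Cd1d1 locus held 1 peak, with the same 45 DN and 31 DP counts as its promoter peak, so it added no depth. The loci of Cd82 (1.58-fold) and Cd164 (1.67-fold) were lower in DP cells, and the Cd164 interval includes 1. The label number series were unevenly spread over the sorts: 32 of 182 DN cells and 64 of 125 DP cells were in the series that starts at 4000. Within that series 4 loci held 50 counts, of which Cd44 was higher (3.74-fold) and Cd82 lower (1.60-fold, with an interval that includes 1). Cd96, Cd2ap, Cd226, Cd1d1 and Cd164 held too few counts there for a call.

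From DP to SP, 15 loci held 50 counts, 2 were higher and 4 lower, with 15.0% of all loci higher and 12.5% lower. Cd164 was higher in SP cells (2.41-fold, 1.32 to 4.75), as was Cd28 (1.59-fold, 1.15 to 2.24), and Cd27 (1.97-fold), Cd96 (1.66-fold), Cd2ap (2.05-fold) and Cd24a (1.56-fold, with an interval that includes 1) were lower. The locus of Cd2, whose RNA was 6.84-fold higher in DPsel-like than in DPre-like cells, was at 0.872 (0.564 to 1.29) in DP, 1.40 (1.04 to 1.85) in CD4 and 1.17 (0.812 to 1.62) in CD8 cells, with overlapping intervals. The Cd2 promoter peak alone held 1 count in DP and 18 in SP cells, a level 8.18-fold higher in the latter (1.29 to 341). Together these are under the 50 counts required, so no call was made for that peak. In the DN cells, 1 cell gave 43 of the 158 counts of the Cd28 locus.

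Between CD4 and CD8 sorted cells, 1 of 11 loci was apart, with 11.5% of all loci higher and 13.1% lower in CD8. The locus of Cd226, with 9 peaks, was at 0.888 (0.603 to 1.26) in CD4 and 2.93 (2.35 to 3.61) in CD8 cells, 3.30-fold higher in the latter (2.17 to 5.15). It had a count in 25 of 119 CD4 and 45 of 116 CD8 cells, and no cell held more than 8. The labels number the cells in series, whose meaning they do not state. Within the series that starts at 4000 the Cd226 ratio was 3.45 (2.18 to 5.62), and within that which starts at 31000, with 6 and 3 counts, it was 1.68 (0.272 to 7.88). Within the first series, the Cd28 ratio from DP to SP was 1.34 (0.918 to 2.02) and did not pass the rule, while Cd164 (2.33), Cd96 (0.572) and Cd2ap (0.388) did. Cd27 and Cd24a, lower in SP over all cells, were not called within that series. The RNA of Cd226 had been at 0.133 in CD4sp-like cells and 0.548 in CD8sp-like ones, with intervals that do not overlap. Those levels rested on 7 and 23 steps, together under the 50 that the RNA rule asks for.

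**Figure D5:**
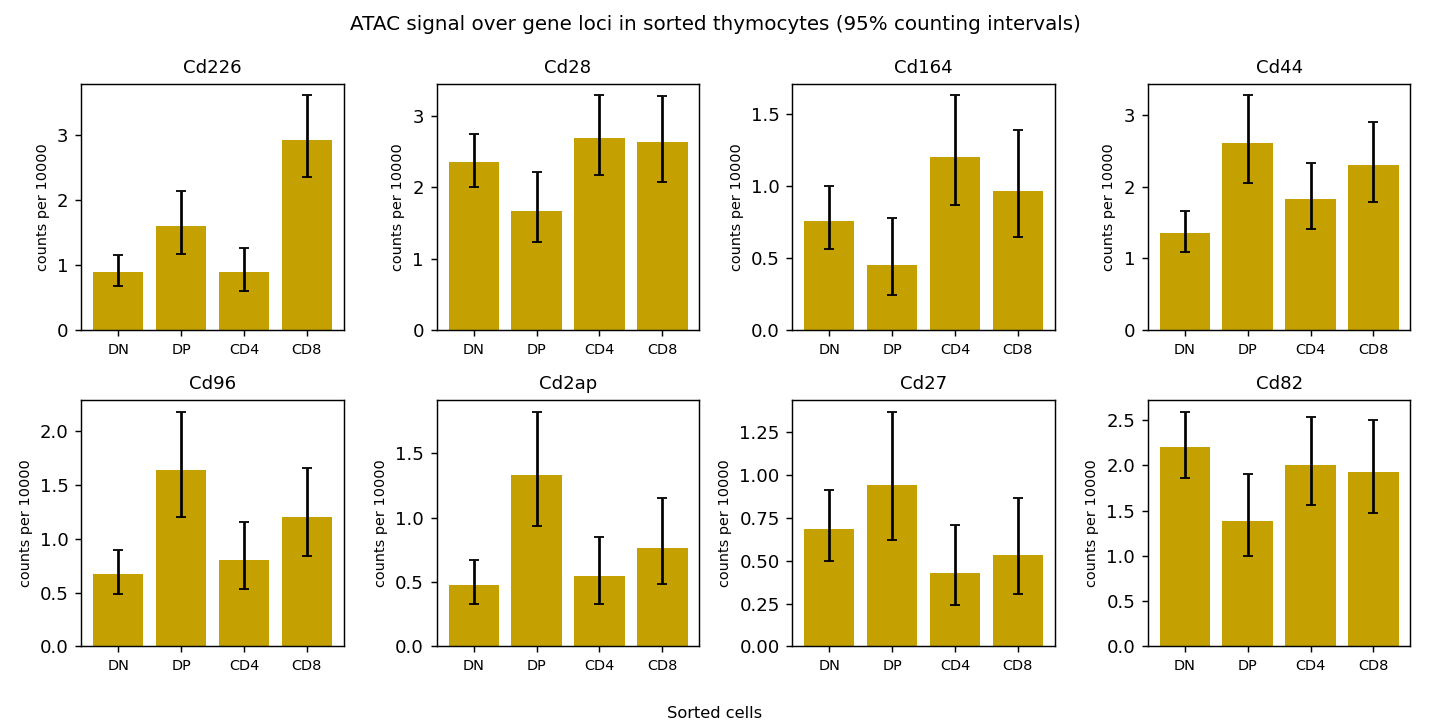
ATAC counts per 10000 counts in non-overlapping peaks over 8 gene loci in DN, DP, CD4 and CD8 sorted cells; bars are the pooled level of 1 sort and lines are 95% counting intervals. Cd226 stands at 2.93 in CD8 and 0.888 in CD4 cells, and Cd96 and Cd2ap are highest in DP cells.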

How the data were processed

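Thymocytes were profiled by scRNA-seq in 1 library and by scATAC-seq in sorted cells. For RNA, the authors aligned reads with Cell Ranger 1.3.1 (per the submitters' processing notes, which list GRCm38.p5 and, with no role given, hg38), filtered cells and genes, applied quantile normalization across cells and deposited log2 values with zeros kept at 0. For ATAC, the authors trimmed adapters, used Bowtie2 for mapping, Picard against duplicates and MACS2 on pooled cells for peaks, and deposited unscaled counts of each cell in each peak. Which build the ATAC reads were mapped to is not given in the sources used here. A total of 1446 columns of ATAC cells, labelled total thymocytes or of no stated group, were not used.

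Log2 values were turned into steps, the dense rank of a value within its cell, which understate highly expressed genes. Clustering used Seurat 5.3.0 in R 4.3.3 (variable genes by mean, 0.025 to 3, and dispersion, 0.5 or more; 20 principal components, 30 neighbors, resolution 2); the 19 of the 40 genes among the 1306 variable genes were left out. Each cluster was named for the marker list with the top mean z score, and ISP-like and DPbla-like required Mki67 in at least 50% of cells. The genes and lists were chosen with earlier results of these data known. The values of 1 of the 40 genes are not reported here, though it is counted among them. Doublets were not called; an alternative dropped, per cluster, the 5% of cells with most genes detected. The order used 10 neighbors and 10 end cells. Sums, exact Poisson and binomial intervals (Clopper-Pearson) and ratios were computed in Python 3.11.15 with numpy 2.4.6, pandas 2.3.3, scipy 1.17.1 and scikit-learn 1.9.0, and drawn with matplotlib 3.10.9. The scripts were tested on simulated data. Where a share was 0, the limit given is that of 3 cells. Genes were named where they passed the 2-fold rule (at most 12 per comparison), were among the 8 highest over the thymocyte stages or in NCL-like or APC-like cells, or were Cd2ap, Cd2bp2 or Cd3eap; other genes in the text were chosen after their values were seen. Gene starts were taken from GENCODE vM21. Counts per sorted group and steps per stage set the precision; depth per group stands in the text.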

Additional observations from a re-analysis of the deposited data

How the results depend on the processing

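Of the 27 ratios named by the 2-fold rule, 1 changed direction, that of Cd200 between CD4sp-like and CD8sp-like cells, at 1.20 with 30 principal components. Of the 242 alternative values of these ratios, 9 kept the direction but lay outside the counting interval of the main ratio. For the mean log2 setting only the direction was compared. The counts of genes apart changed by more than 1.5 times under some settings, in part because fewer genes held the minimum. With every cell thinned, the count from DN-like to ISP-like cells was 2 and from ISP-like to DPbla-like cells 1. With a difference in mean log2 of at least 0.5, the counts were 2, 1, 1, 3, 2 and 0 over the 6 comparisons in their order. With at least 20 steps, 10 genes were apart from DPre-like to DPsel-like cells. With 30 principal components, 10 were apart from DN-like to ISP-like cells. The count between CD4sp-like and CD8sp-like cells was 0 with 30 principal components and without clusters 7 and 13, 2 with thinned cells and without the cells with the most detected genes, 3 with the 40 genes kept for clustering and 5 with at least 20 steps; at resolution 1 no CD8sp-like cluster was named, so there was no value. Genes found in at least 10% of cells numbered 20, 19 and 29 without thinning in DN-like, ISP-like and APC-like cells. With at least 2 steps they numbered 3, 2, 2, 4, 4, 5, 5, 6 and 7 from DN-like to CD8sp-like, NCL-like and APC-like cells. Promoter peaks apart numbered 7, 8 and 5 with at least 20 counts and 7, 6 and 1 over gene loci, for DN to DP, DP to SP and CD4 against CD8, and 2 from DP to SP with all peaks within 2 kb. Gene loci apart numbered 2 and 3 from DN to DP and DP to SP within the label numbers from 4000. Within those from 31000, and for promoter peaks from DN to DP within those from 4000, no gene held 50 counts. No paired analysis was possible because each stage and sort is 1 sample. The exclusion of clusters 7 and 13 and the sums over loci were chosen after seeing the data. Depth limited the ATAC results, since at most 4 of the single promoter peaks held 50 counts, and levels under about 50 steps carry wide intervals.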
